A study of Mus musculus with 5 samples.

Results

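The genes described here encode the enzymes that make cholesterol and fatty acids and the proteins that switch them on, measured in cultured mouse pancreatic cells. The 35 listed genes were chosen by their known function, with earlier results of these data known. A gene was measured through a probe set annotated with its symbol and no other, taking the probe set with the highest mean where a gene had several. Of the 35, 34 had such a probe set among the 19938 genes tested, and Acat2 had none. They fall into a sterol arm of 16 measured enzymes, a fatty acid arm of 13 enzymes and a regulator arm of 5 genes. The mean level of 33 of the 34 lay above 6.61, the median of all genes, the exception being Acacb.

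RNA from 5 cultures was hybridised to Affymetrix whole-transcript arrays, which give 1 log2 signal per probe set, so that a difference of 1 is a doubling. All cultures carried the floxed p53 alleles written p53L/L with Pdx-1Cre, a transgene whose Pdx-1 promoter makes Cre recombinase in the pancreatic lineage, although the title of normal ductal replicate 2 names only Pdx-1 and leaves out the word ductal, which its other labels give. The control group, called the controls below, was 2 cultures labelled normal pancreatic ductal cells with these alleles alone, so the controls carry floxed p53 alleles too, and the PDAC group, called the tumour cultures, was 3 primary pancreatic ductal adenocarcinoma cultures that also carried 1 floxed Apc allele (APCL/+). The title of PDAC replicate 3 alone adds the words mutant cell. The cells were grown in RPMI with 10% serum for under 6 passages, per a protocol worded for PDAC cells in every label, the age of the animals is not given in the sources used here, and nothing says that the replicates came from separate animals, so the p-values measure the spread between these 5 cultures only.

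Cells build cholesterol from acetyl-CoA by way of mevalonate, squalene and lanosterol. They build saturated fatty acids from acetyl-CoA by way of malonyl-CoA, and elongases and desaturases then lengthen the chains and put in double bonds. Both routes are switched on by the SREBP transcription factors, which Scap carries from the endoplasmic reticulum to the Golgi for cleavage when membrane sterol is low, and which Insig proteins hold back when it is high. SREBP2 (Srebf2) acts mainly on sterol genes and SREBP1 (Srebf1) mainly on fatty acid genes.

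The promoters of 5 members are printed as examples, and the levels of these genes are given below. Hmgcs1 lay clearly above the controls in PDAC replicate 3 alone. Mvk, Nsdhl and Elovl6 lay above both controls in every PDAC culture and were highest in PDAC replicate 3. Fasn hardly varied. Each printed promoter is the 250 bases before a transcript start, on the gene's own strand, from RefSeq on the GRCm38.p6 build. For Fasn and Mvk that start lies inside the outer bounds of the gene, so the printed Fasn stretch is within the gene and precedes an inner start. Hmgcs1 lies at chr13:119690101-119690350 (+), Mvk at chr5:114444019-114444268 (+), Nsdhl at chrX:72918271-72918520 (+), Elovl6 at chr3:129532136-129532385 (+) and Fasn at chr11:120824548-120824797 (-). Capitals mark matches, on either strand, to 3 motifs. They are TCACNCCAC, the letters of a sterol response element, CCAAT, the letters of the box bound by NF-Y, which reads backwards with swapped bases on the opposite strand, and CACGTG, the letters of an E-box.
Hmgcs1: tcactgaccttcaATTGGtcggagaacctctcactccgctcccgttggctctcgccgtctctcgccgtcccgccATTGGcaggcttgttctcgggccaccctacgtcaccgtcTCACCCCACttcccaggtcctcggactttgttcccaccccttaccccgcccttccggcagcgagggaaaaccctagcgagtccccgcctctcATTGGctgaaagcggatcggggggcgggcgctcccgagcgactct
Mvk: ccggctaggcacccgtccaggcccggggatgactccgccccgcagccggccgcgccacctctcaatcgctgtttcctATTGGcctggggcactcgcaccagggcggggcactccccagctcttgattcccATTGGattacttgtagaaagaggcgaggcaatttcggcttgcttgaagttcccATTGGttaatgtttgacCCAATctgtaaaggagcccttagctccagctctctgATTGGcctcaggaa
Nsdhl: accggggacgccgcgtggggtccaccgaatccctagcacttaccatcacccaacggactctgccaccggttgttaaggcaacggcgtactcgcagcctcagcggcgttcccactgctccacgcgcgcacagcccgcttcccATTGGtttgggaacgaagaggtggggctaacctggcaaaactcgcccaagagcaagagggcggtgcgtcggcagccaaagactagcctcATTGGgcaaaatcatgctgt
Elovl6: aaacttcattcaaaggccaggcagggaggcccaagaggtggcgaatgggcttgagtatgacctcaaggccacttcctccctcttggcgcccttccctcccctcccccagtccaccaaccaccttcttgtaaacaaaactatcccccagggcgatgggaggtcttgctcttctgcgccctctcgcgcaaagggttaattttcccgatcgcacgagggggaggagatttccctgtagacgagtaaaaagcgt
Fasn: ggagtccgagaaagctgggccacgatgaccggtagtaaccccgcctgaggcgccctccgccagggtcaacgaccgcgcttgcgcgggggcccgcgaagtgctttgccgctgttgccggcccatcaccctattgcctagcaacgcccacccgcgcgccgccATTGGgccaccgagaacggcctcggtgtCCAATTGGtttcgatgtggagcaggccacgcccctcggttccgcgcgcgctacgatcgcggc

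Over these 250 bases the Hmgcs1 promoter held 1 match to TCACNCCAC, which begins 137 bases before the start. CCAAT was found at 5 places before the start of Mvk, 173, 120, 67, 50 and 14 bases upstream, and none of the 3 motifs was found before the start of Elovl6. The matches at 62 and 59 bases before the start of Fasn overlap each other. Promoters of 27 members were in the table (Fdps, Fdft1, Sqle, Scd1, Scd2, Fads1 and Stard4 were not matched), here read from 250 bases before to 50 after each start, with some genes having more than 1 start. CCAAT was present for 22 of the 27 (81.5%), against 41.7% of the 15563 tested genes in the table. CACGTG was present for 6 of them (22.2%, against 9.52%) and TCACNCCAC for 1, Hmgcs1 (3.70%, against 1.39%). These shares describe letters in a window and were not tested.

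In the mean of the 3 PDAC cultures most members stood higher than in the normal ductal cultures, most of all in PDAC replicate 3. Over the 34 members the median difference from the normal ductal mean was 1.12 in PDAC replicate 3. It was 0.15 in the mean of PDAC replicates 1 and 2, no larger than the gap between the controls. Normal ductal replicate 1 exceeded replicate 2 by a median of 0.17, and for 26 of the 34 members (0.054 over all genes, 11437 of 19938). The median log2 fold change, PDAC over normal ductal, was 0.45 in the sterol arm, 0.47 in the fatty acid arm and 0.21 in the regulator arm, against 0.0069 over all genes, and 31 of the 34 members had a value above 0, against 51.3% of all genes. By size of the log2 fold change the first 5 were the elongase Elovl7 (lower), the desaturases Scd1 and Scd2, the elongase Elovl6 and the squalene epoxidase Sqle (all higher). The limma test with Benjamini-Hochberg adjustment over all genes called 0 of the 34 (0.00502% of all genes were called higher and 0.0502% lower). Without adjustment 7 members were higher and 1 was lower with a p under 0.05, against 6.5% and 6.86% of all genes. The 7 became 3 and 2 without normal ductal replicate 1 or 2 and 4 without PDAC replicate 1 or 3, and the 1 became 0 without normal ductal replicate 1 and 2 without PDAC replicate 3. Every PDAC culture lay above both normal ductal cultures for 14 members (13.6% of all genes) and below both for 1 (12.8%).

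**Figure D1:**
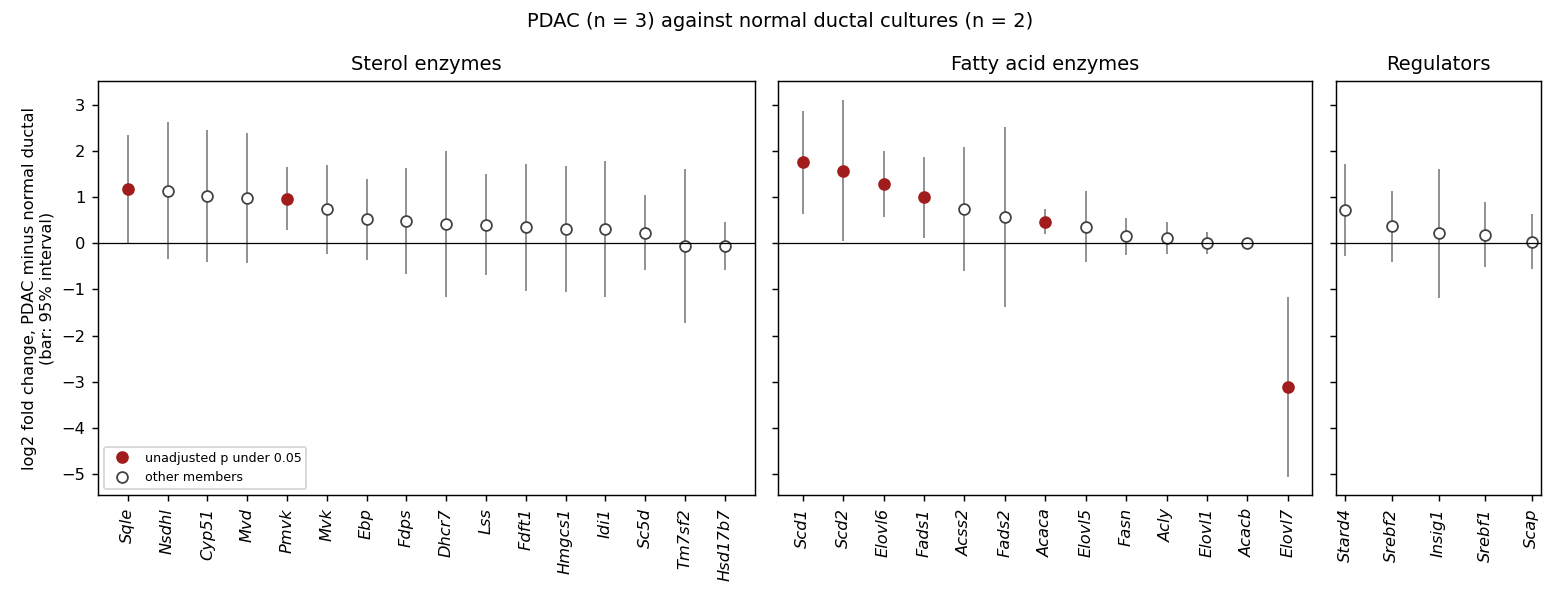
Log2 fold change of each of the 34 members, PDAC (n = 3) minus normal ductal (n = 2), with its 95% interval from limma, in 3 panels by arm and ordered by size. Filled points mark the 8 members with an unadjusted p under 0.05, and Elovl7 is the one filled point below 0, at -3.12.

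The array of PDAC replicate 3 was the highest of the 5, ties not counted, for 29 of the 34 members, against 16.1% of all genes. All genes include 721 with 1 value on all arrays, which cannot count here or in the shares below. The 29 were all 16 sterol enzymes, 9 of the 13 fatty acid enzymes and 4 of the 5 regulators. Among the PDAC cultures alone, without reference to the controls, replicate 3 lay above both others for 30 members (26.6% of all genes) and more than 0.5 above their mean for 25 (7.57%). Part of this height was shared by 55 other measured genes of sterol and fatty acid metabolism. PDAC replicate 3 was the highest array for 23 of the 55, lay above both other PDAC cultures for 32 and more than 0.5 above their mean for 11. The median difference between replicate 3 and the mean of replicates 1 and 2 was 0.99 in the sterol arm and 0.60 in each of the other arms, against 0.00 over all genes. With PDAC replicate 3 left out, the median log2 fold change fell to 0.11 in the sterol arm, 0.20 in the fatty acid arm and 0.085 in the regulator arm. The mean of PDAC replicates 1 and 2 exceeded the normal ductal mean by more than 0.5 for 9 members, 5 sterol and 4 fatty acid enzymes (10.3% of all genes), whereas PDAC replicate 3 exceeded it by that much for 26 (9.54%). The sterol median was 0.69 without PDAC replicate 2 and 0.29 without normal ductal replicate 2, and the regulator median was 0.49 and 0.074 in those fits and 0.40 without normal ductal replicate 1.

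**Figure D2:**
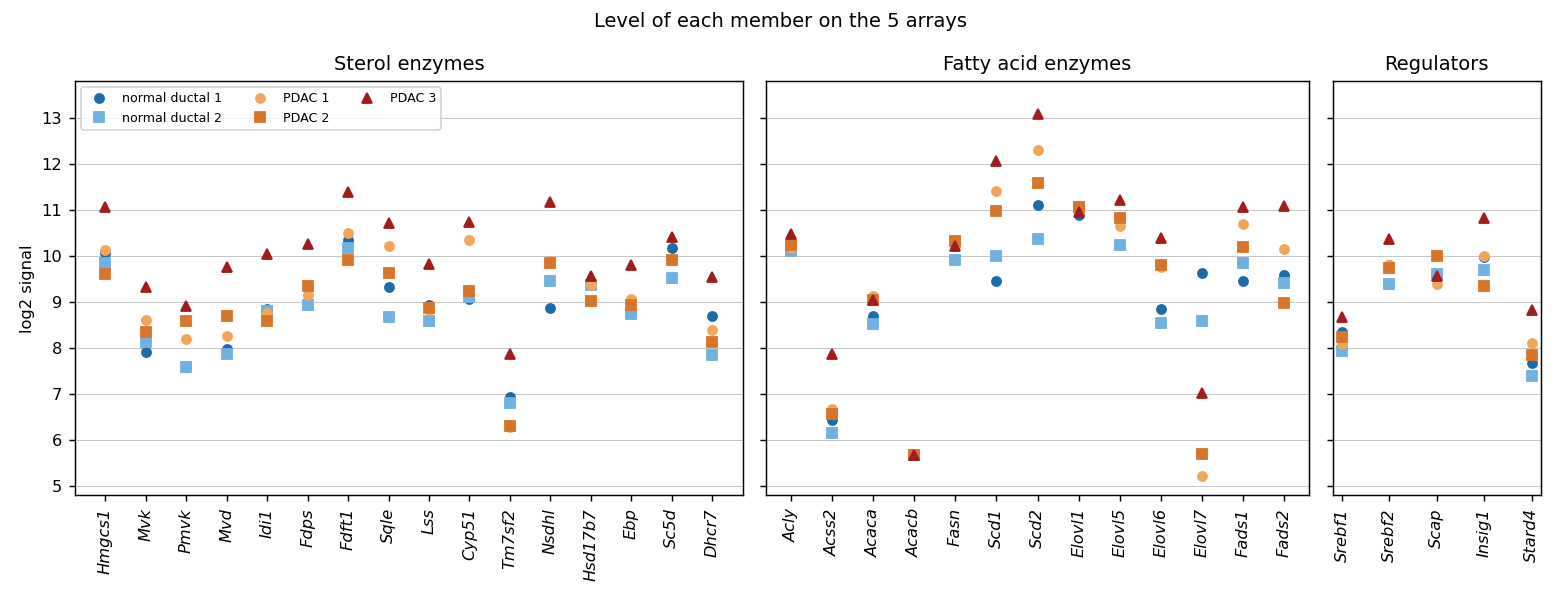
Log2 signal (vertical axis) of each of the 34 members on each of the 5 arrays, in 3 panels by arm; each point is 1 culture. PDAC replicate 3, the dark triangle, is the highest point for all 16 sterol enzymes, while Fasn and Elovl1 lie within a narrow band on all arrays; levels of different genes cannot be set against each other.

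The mean levels of cell type markers also differed between the cultures. The 8 measured of 9 duct and epithelial markers had mean levels of 11.24 and 10.76 in normal ductal replicates 1 and 2 and of 6.74, 8.04 and 9.87 in PDAC replicates 1, 2 and 3, so that replicate 3 was the highest of the PDAC cultures and both controls lay above it. Fibroblast markers (8 of 8 measured) averaged 7.02 and 9.93 in the normal ductal and between 9.07 and 9.79 in the PDAC cultures. Normal ductal replicate 2 held the highest means of acinar (4 of 7 measured, 8.74 against 5.57 to 5.96 elsewhere), islet (4 of 5 measured, 8.71 against 5.52 to 6.61), endothelial (4 of 4, 8.06 against 4.94 to 6.04) and leukocyte markers (4 of 4, 6.76 against 5.47 to 5.99). Not every acinar and leukocyte marker went this way. The acinar gene Cela1 read 7.28 in that culture and 7.45, 7.89 and 7.44 in PDAC replicates 1, 2 and 3. Of the leukocyte genes, Lyz2 and Cd68 were highest in normal ductal replicate 2, Cd3e was lowest there (5.27), and Ptprc read 4.59 on every array but PDAC replicate 3 (4.42). Adipocyte markers (7 of 8 measured) averaged between 5.15 and 5.54 on the 5 arrays, with adiponectin (Adipoq) between 3.86 and 4.02. Plin4, the 1 of the 7 with a log2 fold change above 0, read 6.03 and 5.89 in the controls and 7.16, 7.13 and 6.49 in the tumour cultures. Fabp4 ran from 4.39 in normal ductal replicate 1 to 6.86 in PDAC replicate 1. Hepatocyte markers (3 of 4 measured) averaged between 4.90 and 5.56. Among the latter, albumin (Alb) read 6.88 in PDAC replicate 3 and 4.62 to 4.82 on the other 4 arrays, while Apoa1 and Ttr were not higher there. The part of other cell types in the results was not tested, and in bulk RNA fewer cells of a type and less RNA per cell cannot be told apart. The probe set of Apc read 9.23 and 9.02 in the controls and between 8.58 and 9.06 in the tumour cultures; it spans more than the floxed part and is no check of the labels.

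The first enzymes of the sterol arm turn acetyl-CoA units into farnesyl diphosphate. Hmgcs1, the HMG-CoA synthase of the cytosol, stood at 10.06 and 9.85 in normal ductal replicates 1 and 2 and at 10.14, 9.61 and 11.05 in PDAC replicates 1, 2 and 3. PDAC replicate 3 alone lay clearly above the controls, and the log2 fold change of 0.31 (SE 0.48, 95% interval -1.05 to 1.67) had an adjusted p = 0.780 by limma. Idi1, the isomerase of isoprenoid units, behaved alike, with 8.85 and 8.80 in the controls and 8.77, 8.58 and 10.05 in PDAC, and its second probe set gave 8.72, 8.65, 8.55, 8.49 and 9.92 in the same order. Without PDAC replicate 3 the log2 fold changes of Hmgcs1 and Idi1 turned to -0.082 and -0.15. Fdps, which makes farnesyl diphosphate, ranged from 8.93 to 9.36 on the other 4 arrays and stood at 10.27 in PDAC replicate 3.

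For both kinases of this stretch every tumour culture lay above both controls, although neither passed the adjusted test. Pmvk, the phosphomevalonate kinase, read 7.60 and 7.58 in the controls and 8.19, 8.59 and 8.92 in the tumour cultures. The groups did not overlap, and the log2 fold change of 0.97 (SE 0.25, a fold of 1.96) had an adjusted p = 0.278 by limma, with an unadjusted p under 0.05. Mvk, the mevalonate kinase, stood at 7.93 and 8.13 against 8.62, 8.36 and 9.33, a log2 fold change of 0.74 (SE 0.34, adjusted p = 0.497). Mvd, the decarboxylase that follows, stood at 7.98 and 7.88 against 8.27, 8.69 and 9.75. For Mvk and Mvd the groups lay apart as well, but the spread among the PDAC cultures (SD 0.51 and 0.76, n = 3) was as large as most of the difference.

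Squalene and lanosterol are made by the next 3 enzymes. Sqle, the squalene epoxidase and a rate-controlling step of the route, read 9.33 and 8.68 in the controls and 10.22, 9.63 and 10.72 in the tumour cultures. All PDAC values lay above both controls, with a log2 fold change of 1.18 (SE 0.42, a fold of 2.27) and an adjusted p = 0.372 by limma. Fdft1, the squalene synthase, stood at 10.34 and 10.17 against 10.49, 9.92 and 11.39, and its second probe set at 10.06 and 9.88 against 10.09, 9.71 and 11.25. On both probe sets PDAC replicate 2 was the lowest array and replicate 3 the highest, so the groups overlapped (log2 fold change 0.35, SE 0.49, adjusted p = 0.753). Lss, the lanosterol synthase, ranged from 8.60 to 8.94 on 4 arrays and stood at 9.82 in PDAC replicate 3.

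The 7 enzymes that turn lanosterol into cholesterol differed among themselves. Nsdhl, a dehydrogenase that takes part in removing methyl groups, read 8.87 and 9.45 in the controls and 9.90, 9.84 and 11.16 in the tumour cultures, a log2 fold change of 1.14 (SE 0.53, adjusted p = 0.494 by limma). Cyp51, the lanosterol demethylase, stood at 9.06 and 9.12 against 10.36, 9.24 and 10.73. Ebp, a sterol isomerase, stood at 8.76 and 8.75 against 9.08, 8.94 and 9.81. In these 3 genes the groups lay apart, with PDAC replicate 2 close to the controls for Cyp51. For Tm7sf2, a sterol reductase, PDAC replicates 1 and 2 (6.29 and 6.31) lay below both controls (6.94 and 6.82) and PDAC replicate 3 (7.88) above them. Its log2 fold change of -0.051 turned to 0.053 under quantile normalization and to 0.043 with the arrays at a common median, so it has no direction here. Dhcr7, the last reductase of one branch, ranged from 7.86 to 8.70 outside PDAC replicate 3 (9.55). Sc5d (9.52 to 10.40) and Hsd17b7 (9.03 to 9.56) varied least among the 7, and the log2 fold change of Hsd17b7, -0.056, turned to 0.037 with a common array median.

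Of the 5 enzymes that supply and build the fatty acid chain, Fasn and Acly had overlapping groups, while Acss2 and Acaca lay higher in every tumour culture. Fasn, the fatty acid synthase, read 10.30 and 9.90 in the controls and 10.22, 10.32 and 10.22 in the tumour cultures. All PDAC values lay between the controls or just above them, and the log2 fold change of 0.15 had a 95% interval from -0.26 to 0.56 (adjusted p = 0.651 by limma). Acly, which splits citrate to give cytosolic acetyl-CoA, stood at 10.24 and 10.12 against 10.18, 10.23 and 10.47, a log2 fold change of 0.11 (95% interval -0.23 to 0.46). Neither interval reached a doubling. Acss2, which makes acetyl-CoA from acetate, was higher in every PDAC culture, at 6.67, 6.56 and 7.86 against 6.43 and 6.15, with replicate 3 far above the rest (log2 fold change 0.75, SE 0.48, adjusted p = 0.550).

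Acaca, the carboxylase that makes malonyl-CoA, the first committed step, showed the smallest spread of the higher members. It read 8.70 and 8.52 in the controls and 9.14, 9.04 and 9.04 in the tumour cultures. The groups lay apart and PDAC replicate 3 did not stand out, with a log2 fold change of 0.47 (SE 0.10, a fold of 1.38, adjusted p = 0.218 by limma). Its second probe set gave 7.27 and 7.19 against 8.02, 8.10 and 7.80, a difference of 0.75. Acaca was the one member with an unadjusted p under 0.05 under all 15 alternatives. Acacb, the isoform of the mitochondrial membrane, read between 5.67 and 5.69 on all arrays; the values hold no detection call, so whether it lies above background is not known here.

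**Figure D3:**
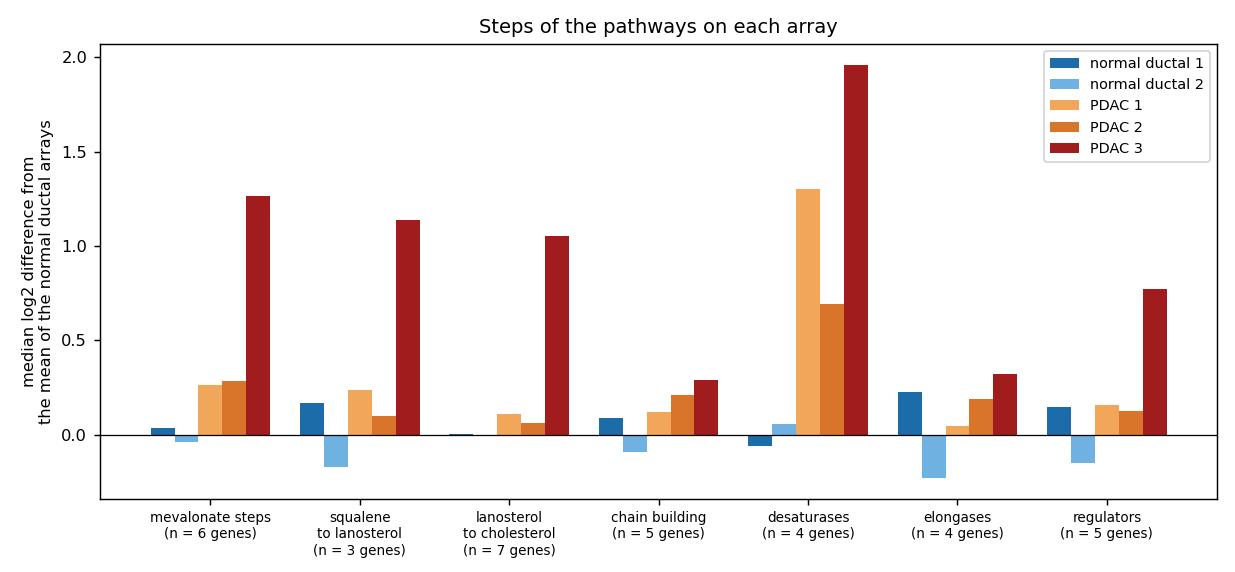
Median log2 difference from the control mean (vertical axis, bars drawn from 0) for 7 groups of members, with 1 bar per array. PDAC replicate 3 stands out in the 3 sterol groups, at 1.27, 1.14 and 1.05, and its tallest bar is that of the desaturases, at 1.96. The desaturases are the group in which all PDAC bars are above 0.5.

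Scd1 and Scd2 had the largest log2 fold changes among the higher members. Scd1, a stearoyl-CoA desaturase that makes monounsaturated fatty acids, read 9.47 and 10.00 in the controls and 11.42, 10.98 and 12.07 in the tumour cultures. Scd2, its paralog, stood at 11.12 and 10.37 against 12.31, 11.58 and 13.08. In both genes every PDAC culture lay above both controls, in the order replicate 3, replicate 1, replicate 2. The log2 fold change was 1.75 (SE 0.40, a fold of 3.37, adjusted p = 0.244 by limma) for Scd1 and 1.58 (SE 0.55, a fold of 2.98, adjusted p = 0.364) for Scd2. They remained at 1.46 and 1.20 with PDAC replicate 3 left out. The genes are neighbours, Scd1 at chr19:44394450-44407709 and Scd2 at chr19:44293676-44306864 on GRCm38, with 87585 bases between them, and probes of such similar genes may share signal.

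Fads1 and Fads2, which desaturate polyunsaturated fatty acids, lie close together too (chr19:10182877-10196874 and chr19:10062765-10101503, 81373 bases apart). Fads1 read 9.46 and 9.85 in the controls and 10.70, 10.20 and 11.06 in the tumour cultures, so that the groups lay apart. Its log2 fold change was 1.0 (SE 0.31, a fold of 2.00, adjusted p = 0.333 by limma). Fads2 stood at 9.59 and 9.42 against 10.15, 8.99 and 11.09, with PDAC replicate 2 below both controls. Its log2 fold change of 0.57 had an SE of 0.69, the PDAC SD being 1.06 (n = 3). The order of the PDAC cultures, replicate 3 above 1 above 2, was that of Scd1 and Scd2.

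The elongases went in different directions. Elovl6, which lengthens palmitate, read 8.85 and 8.54 in the controls and 9.75, 9.81 and 10.39 in the tumour cultures, all above the controls. Its log2 fold change was 1.29 (SE 0.26, a fold of 2.44) and its adjusted p = 0.217 by limma was the lowest of the 34 members. Elovl7, another elongase of long chains, read 9.62 and 8.58 in the controls and 5.23, 5.71 and 7.01 in the tumour cultures. It was 8.67-fold lower in PDAC (log2 fold change -3.12, SE 0.69, adjusted p = 0.238), and its range over the arrays, 4.39, was the largest of the members. Its levels in the PDAC cultures had the order of the epithelial marker means given above (6.74, 8.04 and 9.87), which was not tested further. Elovl5 (10.23 to 11.21) and Elovl1 (10.89 to 11.08) had overlapping groups, and the log2 fold change of Elovl1 was 0.014 (95% interval -0.23 to 0.25), turning to -0.011 under quantile normalization.

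Of the 5 regulators, only Stard4 had groups that lay apart. Srebf2 read 9.81 and 9.39 in the controls and 9.81, 9.73 and 10.37 in the tumour cultures, and Srebf1 at 8.36 and 7.94 against 8.10, 8.23 and 8.68. For both the groups overlapped and PDAC replicate 3 was the highest array, with log2 fold changes of 0.37 (SE 0.27, adjusted p = 0.566 by limma) and 0.19 (SE 0.25, adjusted p = 0.738). Insig1, the retention protein that is itself a target of SREBP, stood at 9.98 and 9.70 against 10.00, 9.34 and 10.82. PDAC replicate 2 was its lowest and replicate 3 its highest array, as for Fdft1 and Hmgcs1. Scap stood at 9.62 and 9.62 against 9.40, 10.00 and 9.56, and was the one regulator for which PDAC replicate 3 was not highest; its log2 fold change of 0.040 turned to -0.0041 under quantile normalization. Stard4, a carrier of cholesterol between membranes, was higher in every PDAC culture (8.11, 7.84 and 8.83 against 7.68 and 7.39), with a log2 fold change of 0.72 (SE 0.35, adjusted p = 0.521).

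**Figure D4:**
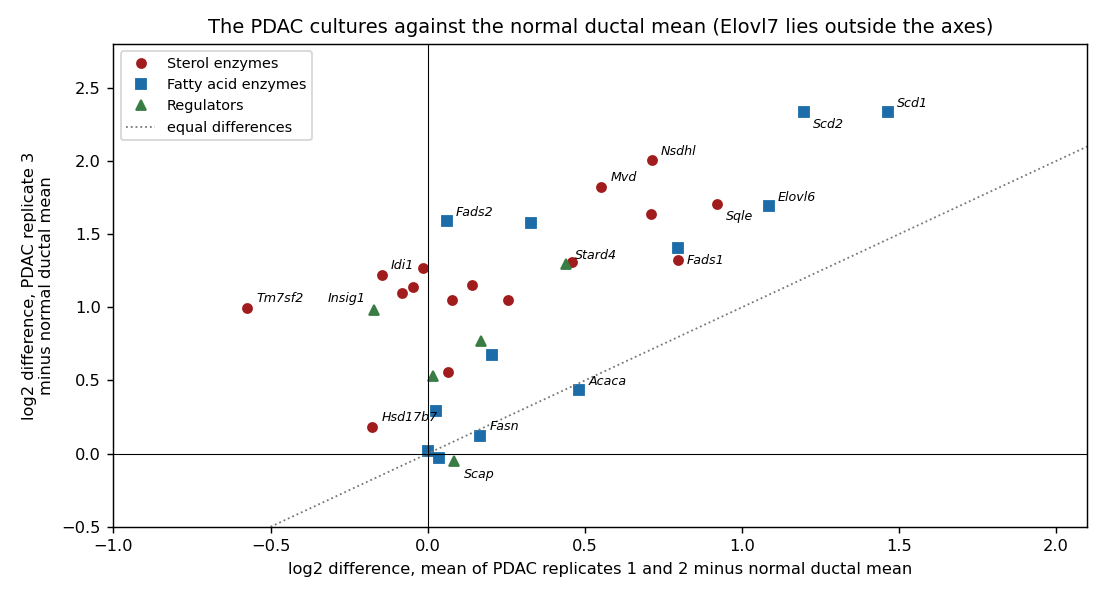
Each member's log2 difference from the normal ductal mean in PDAC replicate 3 (vertical axis) against that of the mean of PDAC replicates 1 and 2 (horizontal axis), coloured by arm; Elovl7, at -3.63 and -2.09, lies outside the axes and the axes share the normal ductal mean. Most sterol enzymes lie well above the dotted line of equal differences, Tm7sf2 at -0.57 and 1.0 being the leftmost, while Acaca and Fasn lie near the line.

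The members' patterns thus came in several kinds. Acaca differed alike in all PDAC cultures. Scd1, Scd2, Elovl6, Fads1, Sqle and Pmvk were higher in PDAC replicates 1 and 2, by 0.80 to 1.46 in their mean, and stood 1.33 to 2.34 above the same normal ductal mean in replicate 3. Hmgcs1, Idi1, Fdft1, Dhcr7 and Insig1 differed from the normal ductal mean by -0.17 to -0.015 in the mean of PDAC replicates 1 and 2 and stood 0.98 to 1.27 above it in replicate 3. The median SD among the 3 PDAC cultures was 0.66 in the sterol arm and 0.35 in the fatty acid arm, against 0.14 over all genes. The median log2 fold change was 0.45 in the sterol arm and 0.47 in the fatty acid arm, and the within-group SD of the arm means was 0.48 and 0.31. Both arms were read on the same arrays, so these SDs do not measure the error of a difference between the arms, which was not tested.

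Of 66 other genes of sterol and fatty acid metabolism, 55 were measured, with a median log2 fold change of 0.073. By limma 0 of them passed the adjusted threshold, while 3 higher and 3 lower genes had an unadjusted p under 0.05, shares close to the 6.5% and 6.86% of all genes. Among 4 measured sterol enzymes outside the list, Erg28, a scaffold of the demethylation complex, was higher in PDAC (11.19, 11.12 and 11.39 against 10.64 and 10.40, log2 fold change 0.71, SE 0.13, adjusted p = 0.204). Of 4 measured genes listed under SREBP processing, Mbtps1, the protease that makes the first cut in SREBP, was higher (10.03, 10.00 and 9.88 against 9.47 and 9.26, log2 fold change 0.61, SE 0.11, adjusted p = 0.198 by limma). Ubxn8, a protein of the endoplasmic reticulum, was higher too (0.46, SE 0.09, adjusted p = 0.214 by limma). Nothing here shows that Ubxn8 acts on SREBP. Neither Mbtps1 nor Ubxn8 was far higher in PDAC replicate 3 than in the other PDAC cultures.

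In the lists for storage, efflux and breakdown of lipids, 3 genes were lower with an unadjusted p under 0.05, although the median log2 fold changes of those lists were above 0 (0.20 for sterol uptake, storage and efflux, 0.053 for glycerolipid assembly and 0.059 for fatty acid oxidation). Plin2, the coat protein of lipid droplets, read 11.88 and 12.12 in the controls and 10.01, 10.80 and 10.20 in the tumour cultures, 1 of 7 glycerolipid genes with an unadjusted p under 0.05 (log2 fold change -1.66, SE 0.28, adjusted p = 0.193 by limma). Abcg1, an exporter of cholesterol, stood at 6.74 and 7.20 against 6.17, 6.27 and 6.39, 1 of 9 genes of sterol uptake, storage and efflux (-0.69, SE 0.17, adjusted p = 0.267). Acadl, a dehydrogenase of fatty acid oxidation, stood at 10.03 and 9.95 against 9.04, 8.97 and 9.49, 1 of 12 oxidation genes (-0.83, SE 0.20, adjusted p = 0.253). In these 3 genes all PDAC values lay below both controls. Of 19 genes of fatty acid supply and activation 0 had an unadjusted p under 0.05 by limma.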

How the data were processed

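Biotin-labelled RNA was read on whole-transcript arrays of Affymetrix, per the labels' protocols. The authors deposited 1 value per probe set, 35556 on each of 5 arrays, made with Transcriptome Analysis Console 1.0.0.234 on mm10, per the submitters' processing notes. The log2 unit was read from the deposited values (lowest 0.727, highest 13.9, array medians from 5.90 to 6.02); for background correction, normalization and probe summary the method was not given in the sources used here.

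Of the probe sets, 21789 had 1 gene symbol in the platform annotation, 1621 several and 12146 none; the latter kinds were left out. The probe set with the highest mean stood for each of 19938 genes. The test was limma 3.58.1 under R 4.3.3 (lmFit, then eBayes with an intensity trend, 3 residual and 0.91 prior degrees of freedom, both directions), with p-values adjusted by Benjamini and Hochberg across the 19938 and called under 0.05; single genes carry the adjusted p of that fit. Arms, steps and other gene lists were described by counts and medians, with no set test. Summaries were made in Python 3.11.15 with pandas 2.3.3, and figures with matplotlib 3.10.9. On simulated data for this comparison (19938 genes, 10 runs, 200 changed genes in each) the share recovered was 33.8% at a log2 change of 1, 61.4% at 2 and 87.4% at 4, with 6.92% of calls false. The simulation shuffled the spreads over all genes and drew each gene independently. The median SD among the PDAC cultures was 0.53 for the members against 0.14 over all genes, so these shares do not carry over to the members. With 2 and 3 arrays a group, the number of arrays limits the precision.

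The members and lists were chosen with earlier results of these data known. Described in full, with all arrays, are members with an unadjusted p under 0.05, those whose groups lie apart with a log2 fold change over 0.5, the 3 with the largest range, and Srebf1, Srebf2, Scap, Insig1, Fasn, Acly, Acaca, Scd1, Scd2, Hmgcs1, Sqle and Fdft1; of the other pathway genes, up to 2 per list with the smallest unadjusted p under 0.05 are named. Marker lists were those of duct, fibroblast, adipocyte, acinar, islet, hepatocyte, leukocyte and endothelial cells. The alternatives were 2 scalings, 2 filters on low values, 3 variance models, the mean of a gene's probe sets, a block for the replicate number, the fit without each culture in turn, and, added after seeing the data, leaving out genes with equal values on all arrays of a group. A planned comparison of protein sequences was not made.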

Additional observations from a re-analysis of the deposited data

How the results depend on the processing

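Under all 15 alternatives limma called 0 of the 34 members, the lowest adjusted p of any member being 0.0983. The count of all genes called, 11, was 42 after quantile normalization, 80 with a common array median, 42 without the lowest 50% of genes, 3 with array weights and 84 once genes tied across all arrays of a group were dropped. It ran from 0 to 1287 with 1 culture left out (1287 without normal ductal replicate 1, 990 without its replicate 2 and 0 without any 1 of the PDAC cultures). The 7 members higher at an unadjusted p under 0.05 were 10 with a common array median (Mvk, Nsdhl and Stard4 being added), 4 with array weights and 2 to 7 with 1 culture left out (3 without normal ductal replicate 1, 2 without its replicate 2, 4 without PDAC replicate 1 or 3), and the 1 lower member became 0 to 2. With 1 culture left out the median log2 fold change ran from 0.11 to 0.69 in the sterol, 0.20 to 0.66 in the fatty acid and 0.074 to 0.49 in the regulator arm, and by no alternative below 0; the cause was not tested. A lone control is assumed to vary like the PDAC cultures.

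With the replicate number as a block, limma called 0 genes, and 2 members were lower at an unadjusted p under 0.05. PDAC replicate 3 then has no partner, so the estimates are those without it: Dhcr7 -0.015, Fdft1 -0.048, Hmgcs1 -0.082, Idi1 -0.15 and Insig1 -0.17 turned in sign. Deviations of same-numbered cultures from their group means correlated at -0.18 for number 1 and -0.04 for number 2 over all genes, so the numbers were not taken as pairs.

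Of 508 member values under the alternatives, 26 turned in sign, in 12 members, none of them called. Apart from those above these were, by scaling, Elovl1 (-0.011) and Scap (-0.0041) under quantile normalization, Tm7sf2 there (0.053) and with a common median (0.043), and Hsd17b7 with a common median (0.037). With 1 culture left out Dhcr7 ran from -0.015 to 0.83, Elovl1 ran from -0.076 to 0.10, Fasn ran from -0.047 to 0.35, Fdft1 ran from -0.048 to 0.69, Hmgcs1 ran from -0.082 to 0.64, Hsd17b7 ran from -0.18 to 0.088, Idi1 ran from -0.15 to 0.59, Insig1 ran from -0.17 to 0.57, Sc5d ran from -0.093 to 0.55, Scap ran from -0.13 to 0.17, Srebf1 ran from -0.025 to 0.40 and Tm7sf2 ran from -0.57 to 0.22.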

Other observations

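A pair of genes of lipid breakdown, named after their values were seen, shared the height of PDAC replicate 3. Ppargc1a, a coactivator of mitochondrial and oxidative genes, stood at 5.61 and 5.68 in normal ductal replicates 1 and 2 and at 5.86, 7.03 and 9.44 in PDAC replicates 1, 2 and 3 (log2 fold change 1.80, SE 1.19, adjusted p = 0.550 by limma). Lipa, the lysosomal acid lipase that frees cholesterol from its esters, stood at 9.01 and 9.36 against 9.84, 9.70 and 11.39 (1.13, SE 0.63, adjusted p = 0.550). Of the 12 oxidation genes, 7 were highest in PDAC replicate 3, against 16.1% of all genes, and in 2 it lay more than 0.5 above the mean of PDAC replicates 1 and 2. Lipa is 1 of 9 measured genes of sterol uptake, storage and efflux. Of those 9, 2 were highest in PDAC replicate 3, and in 1 it lay more than 0.5 above that mean.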
